A study of Mus musculus with 28 samples.

Results

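The subject here is the restart of transcription in Elongin A (EloA) null mouse embryonic stem cells (mESCs), measured as nascent RNA 5 min after release from a block of Pol II elongation and compared with the same cells in steady state. It rests on 4 of the 12 Bru-seq libraries and of the 28 samples of the series. In steady state, EloA null cells were given 2 mM 5-bromouridine (BrU) for 10 min without any drug, and 2 libraries were made. For recovery, EloA null cells were held for 60 min in 1 µM flavopiridol (FP), washed, and given 2 mM BrU for 5 min, again with 2 libraries. The labels name the line CCE28 for growth and CJ7 for treatment. The mESCs were kept on mouse embryonic fibroblasts with LIF and 2i, inhibitors of MEK and GSK3, and freed of the fibroblasts before labelling, and the WT cells used for comparison were handled in the same way. The genes were joined by name between both tables, and those with a mean RPKM above 0.5 in either condition were kept, which left 11469 of 24980 genes. The study describes the duplicates as independent experiments. How the null allele was made, and whether the line is 1 clone, is not given in the sources used here.

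Most Pol II that initiates in mESCs pauses shortly downstream of the start site and is released into the gene body by P-TEFb, a kinase made of Cdk9 and a T-type cyclin. FP inhibits this kinase, so that no new polymerases enter gene bodies while those already elongating run on. Once the drug is washed out, paused polymerases move off together. A short BrU pulse marks all RNA made during it, by this first wave and by any polymerases still elongating. EloA, the largest subunit of the Elongin complex with EloB and EloC, stimulates elongation by Pol II in vitro and also serves as the substrate adaptor of a Cul5 ubiquitin ligase.

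The first steady-state library is named EloA null in its title and carries wild type in its genotype label, and it was grouped by its title. BC064078, a gene chosen after its values were seen, had an RPKM of 1.31 in that library and 1.30 in the second EloA null library, against 0.170 and 0.151 in the WT steady-state libraries. Eloa itself had 1.96 and 1.89 RPKM in the EloA null libraries and 1.18 and 1.16 RPKM in the WT libraries, so that the level of its nascent RNA does not check the genotype. The library sizes worked out from the RPKM values were 23137975 and 27953731 reads in steady state and 11915457 and 17272526 reads in recovery. Replicates differed by more than counting error, with a chi-square per degree of freedom of 5.56 in steady state and 4.64 in recovery. The 8 mESC markers summed to 165 and 182 RPKM in steady state and 149 and 209 RPKM in recovery. The 8 fibroblast markers summed to 13.7 and 13.2 RPKM against 9.67 and 9.90 RPKM, nearly all of it from Fn1 (12.3 and 12.05 against 8.27 and 9.13 RPKM), while Thy1 stayed at or below 0.0619 RPKM in all 4 libraries. The 5 endoderm and neural markers summed to 0.974 and 1.09 RPKM in steady state and to 0.425 and 0.342 RPKM in recovery.

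Nascent RNA of the typical gene was lower in recovery: the median ratio of mean RPKM, recovery over steady state, was 0.580. Every gene's difference was therefore centred on the median gene, by 0.74 on the log2(RPKM + 0.1) scale, and "rose" and "fell" mean above and below the median gene with a limma adjusted p under 0.05. By this test 3783 of 11469 genes rose, 33.0% of those tested, and 3630 fell, 31.7%, so that 64.6% were called in either direction. Of these, 2259 rose and 1917 fell past 2-fold. A ratio of means past 2-fold without overlap between the conditions was seen for 2500 genes above the median gene (21.8%) and for 2546 below it (22.2%). Without centring, 1685 genes had a higher and 6446 a lower RPKM in recovery. Leaving out the first steady-state library left 1740 genes risen and 1612 fallen, and leaving out the second left 1627 and 1482. RPKM is a share of each library, so a lower value cannot be told apart from a larger output of other genes. FP treatment also goes together with the shorter pulse and with a separate table, and these cannot be told apart.

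Most tested genes, 8043, passed the limit of 0.5 RPKM in both conditions, and 3467 of them rose while 1408 fell. Their median change was 0.37, so the excess of rises depends on centring over all tested genes. Tested alone and centred on their own median, 2246 of the 8043 rose and 2364 fell. A further 3085 genes passed in steady state alone, of which 19 rose and 2222 fell, and 341 passed in recovery alone, of which 297 rose and 0 fell by limma, with 0 at an unadjusted p under 0.05 below the median gene. Genes of these latter kinds passed only through the condition in which they were high.

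The change varied with the length of the gene. Of genes over 200 kb, 361 of 369 rose and 2 fell, with a median change of 1.71 (log2, centred), and their RPKM was higher in recovery even before centring, by a median ratio of 2.04. Among genes of 100 to 200 kb, 530 of 795 rose and 67 fell, with a median change of 0.74 and a median ratio before centring of 0.999. Genes of 20 to 50 kb lay lowest, with 556 of 2896 risen and 1392 fallen and a median of -0.40, followed by genes of 50 to 100 kb with a median of -0.19. Genes of 10 to 20 kb were at the median gene, with 752 of 2153 risen, 744 fallen and a median of 0.00. Genes of 5 to 10 kb lay slightly above it, with 577 of 1422 risen, 372 fallen and a median of 0.26, though the median ratio before centring was below 1 in every class under 200 kb. In genes under 1 kb, mostly small RNAs with few reads, the middle 50% of genes spread from -1.77 to 1.28. The order of the classes was the same in both recovery libraries for the classes over 10 kb: relative to the steady-state mean and before centring, genes over 200 kb were at 1.00 and 0.92 and genes of 20 to 50 kb at -1.18 and -1.12.

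**Figure D1:**
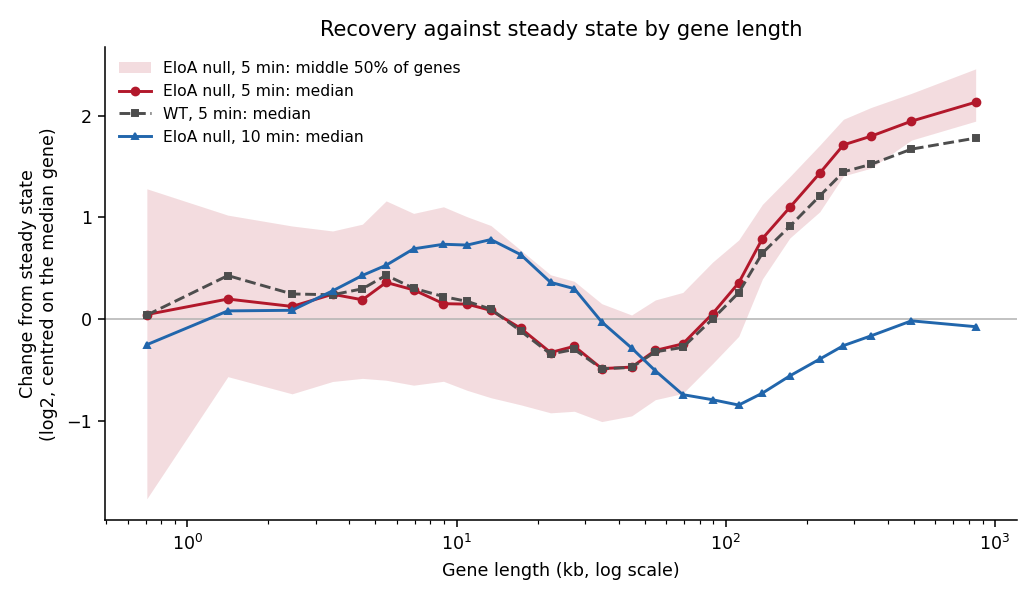
The plot shows the centred log2 change from steady state (y axis) against gene length in kb on a log scale (x axis), as the median over the genes in each of 26 length bins; the band holds the middle 50% of genes in EloA null cells at 5 min. At 5 min the medians of EloA null cells and of WT cells dip between 20 and 100 kb and climb beyond 100 kb, while at 10 min in EloA null cells genes of 50 to 200 kb lie lowest.

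The share of reads moved in the same way. Genes over 200 kb took 16.7% and 17.2% of the reads of the steady-state libraries and 37.0% and 34.5% in recovery. Genes of 20 to 50 kb took 23.7% and 23.0% in steady state and 13.1% and 15.1% in recovery, and genes of 50 to 100 kb 25.4% and 25.5% against 15.4% and 15.7%. The conditions did not overlap in these classes. Between 100 and 200 kb they did, with 22.5% and 23.2% against 24.0% and 22.5%.

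**Figure D2:**
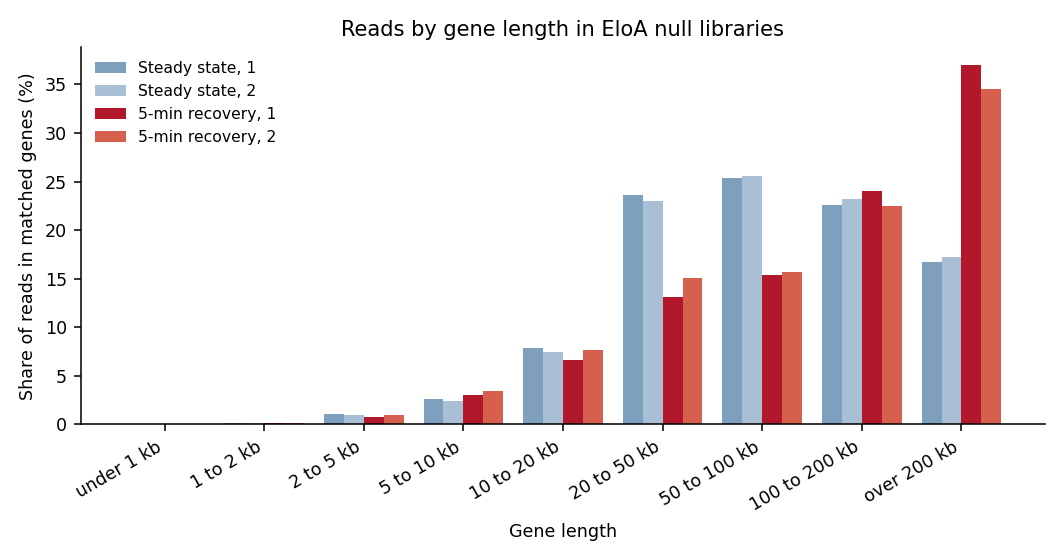
The bars give the percentage of reads in matched genes (y axis) that fell in genes of each length class (x axis), for each of the 4 EloA null libraries. Genes over 200 kb hold 37.0% and 34.5% of the reads in recovery against 16.7% and 17.2% in steady state, while genes of 20 to 100 kb hold fewer.

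A single contrast of short and long genes gave a small value. Genes under 10 kb, 3726 in number, were 0.160 and 0.313 above the 4138 genes over 30 kb in the recovery libraries, a difference of 0.237 from steady state on the log2 scale. With genes under 5 kb against those over 60 kb the difference turned to -0.284. Against genes of 20 to 60 kb alone, a comparison chosen after seeing the data, genes under 10 kb were 0.609 higher and genes over 150 kb 1.85 higher. All of these differences were larger than the spread between replicates, but with 2 libraries in each condition an exact permutation test, two-sided, cannot give a p below 0.333, and each reached this value.

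Base composition varied with the change as well. With the tested genes in 5 equal groups by GC content, in the lowest, 25.3% to 41.4%, 1025 of 2286 rose and 510 fell, with a median of 0.36. In the highest group, 51.5% to 80%, 358 rose and 1000 fell, with a median of -0.58. Within genes of 10 to 20 kb the medians of these groups, from low to high GC, were 0.78, 0.45, 0.14, -0.26 and -0.72, and among genes of 20 to 50 kb they were 0.00, -0.28, -0.39, -0.71 and -1.10. The order did not hold in every length class. Among genes of 50 to 100 kb the medians were -0.12, -0.01, -0.23, -0.38 and -0.76, and among those of 1 to 2 kb 0.73, 1.27, 0.43, 0.59 and -0.003. The highest GC group had the lowest median in every class. Within genes of 10 to 20 kb, those with 16 to 30 exons had a median of -0.48, with 53 of 232 risen and 113 fallen, while those with 3 to 4 exons had a median of 0.33, with 141 of 326 risen and 93 fallen; their median GC contents also differed, at 51.5% and 45.0%. On the X chromosome 180 of 355 genes rose and 39 fell, with a median of 0.60 and a median GC content of 42.7%. The part of GC content in these differences was not tested.

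The 12 genes with the largest rise, among those with at least 50 reads in recovery and no overlap between conditions, changed by 3.40 to 5.29 on the log2 scale. Gpr75 (chr11:30884633-30896090), which codes for a G protein-coupled receptor, had 0.539 and 0.519 RPKM in steady state and 13.3 and 15.99 RPKM in recovery (change 5.29, SE 0.14, limma adjusted p = 0.00179). It overlaps Erlec1 on the other strand, and its start lies 3483 bases past the end of Psme4 on the same strand, a gene of 109 kb that itself rose by 1.18 (SE 0.13). Dtnbp1 (chr13:44922079-45002096), which codes for dysbindin, a subunit of the BLOC-1 complex of endosomes, went from 2.40 and 2.57 RPKM to 30.4 and 38.5 RPKM over a gene of 80.02 kb (change 4.48, SE 0.17, limma adjusted p = 0.00179). Its end lies 436 bases from that of Jarid2, a gene of 191 kb on the other strand. Since the use of strand in the counting is not stated, reads of Erlec1 could be counted for Gpr75. Psme4 and Jarid2 do not overlap these genes, and whether transcription past their ends adds reads was not tested. Across all tested genes, 17.2% have another tested gene ending within 10 kb before their start on the same strand. Among the genes that rose 15.7% do, and among those that fell 15.7%.

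Znrd1, a subunit of Pol I, went from 1.29 and 1.54 RPKM to 11.3 and 20.4 RPKM. Sap30, a subunit of the Sin3 histone deacetylase complex, went from 3.33 and 2.64 RPKM to 20.6 and 32.6 RPKM. Terf2ip, the Rap1 subunit of the telomeric shelterin complex, went from 1.33 and 1.02 RPKM to 8.48 and 11.4 RPKM. Nrbf2, a subunit of an autophagy lipid kinase complex, went from 3.08 and 2.75 RPKM to 21.8 and 20.8 RPKM. In each of these genes the conditions lay far apart, and the changes were 4.08, 3.83, 3.71 and 3.58. The remaining rises were those of Gm13262 (4.53), Svopl (3.68), H1fnt (3.67), Smlr1 (3.54), Gm8630 (3.47) and Fgf16 (3.40), of which Gm13262, H1fnt, Smlr1, Gm8630 and Fgf16 had a steady-state RPKM under 0.5. Over 30 kb, Dtnbp1, Svopl and Gm8630 were followed by Eqtn (3.14), 4922502B01Rik (3.11) and Vmn2r79 (3.09). Eqtn and Vmn2r79 also had a steady-state RPKM under 0.5. All 12 of the largest rises were also above the median gene in WT cells at 5 min.

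The promoters of the 4 genes with the largest rise are shown because these genes rose most, from RefSeq on GRCm38.p6, each with 250 bases before the start and 50 after it. For Gpr75 the start used lies inside the gene span given above, and so does the whole window shown. Capitals mark motifs found on either strand. The motifs searched were the TATA box, spelled TATAAA, the CArG box, the cAMP response element, spelled TGACGTCA, the E-box, spelled CACGTG, the GC box, spelled GGGCGG, and the CCAAT box, spelled by its name. No letters of 1 motif overlap another in these promoters.
Gpr75, chr11:30885108-30885407, plus strand: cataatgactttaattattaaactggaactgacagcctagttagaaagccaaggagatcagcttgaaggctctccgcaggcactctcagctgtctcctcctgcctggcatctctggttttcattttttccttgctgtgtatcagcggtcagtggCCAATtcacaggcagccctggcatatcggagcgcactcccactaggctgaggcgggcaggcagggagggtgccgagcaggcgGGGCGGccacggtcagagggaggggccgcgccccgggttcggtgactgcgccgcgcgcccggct
Gm13262, chr2:9905899-9906198, plus strand: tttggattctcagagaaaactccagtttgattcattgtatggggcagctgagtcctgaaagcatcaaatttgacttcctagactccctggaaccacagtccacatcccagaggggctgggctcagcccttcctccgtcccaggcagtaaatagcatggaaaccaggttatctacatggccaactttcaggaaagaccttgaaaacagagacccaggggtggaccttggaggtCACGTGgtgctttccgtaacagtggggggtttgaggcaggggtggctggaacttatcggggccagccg
Dtnbp1, chr13:45002047-45002346, minus strand: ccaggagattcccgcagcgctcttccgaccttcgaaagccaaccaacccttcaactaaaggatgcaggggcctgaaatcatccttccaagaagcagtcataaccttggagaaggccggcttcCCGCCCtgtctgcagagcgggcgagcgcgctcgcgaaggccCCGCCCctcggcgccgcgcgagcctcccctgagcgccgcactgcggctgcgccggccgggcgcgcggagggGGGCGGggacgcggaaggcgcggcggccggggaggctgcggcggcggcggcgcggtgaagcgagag
Znrd1, chr17:36958476-36958775, minus strand: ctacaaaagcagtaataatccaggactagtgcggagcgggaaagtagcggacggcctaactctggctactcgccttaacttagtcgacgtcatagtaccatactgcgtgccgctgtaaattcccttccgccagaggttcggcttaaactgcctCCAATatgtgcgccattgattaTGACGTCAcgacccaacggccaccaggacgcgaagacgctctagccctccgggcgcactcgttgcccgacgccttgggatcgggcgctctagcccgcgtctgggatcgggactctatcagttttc

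These 4 promoters have no motif in common. The GC box was in 61.2% of the 2884 promoters of genes that rose, in 67.7% of the 2787 promoters of genes that fell and in 64.8% of the 8559 promoters of all tested genes, against 35.9% of all 27025 promoters in the table. The cAMP response element was in 4.09%, 3.27% and 3.66% of the same promoters and in 1.88% of all promoters, and the TATA box in 7.59%, 6.17% and 6.87% against 14.2%. For the E-box the shares were 10.2%, 11.1% and 11.1% against 7.24%, for the CCAAT box 39.6%, 39.6% and 39.7% against 37.9%, and for the CArG box 1.11%, 1.44% and 1.29% against 1.57%. Where a gene has several starts, the first in the table was used, and a match is a description of the letters alone.

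Of the 12 largest falls, 11 are described here, and those with reads in recovery changed by -2.57 to -3.40. Among them was Irs2, the insulin receptor substrate, with 2.65 and 2.56 RPKM in steady state and 0.101 and 0.0796 RPKM in recovery (change -3.09, SE 0.12, limma adjusted p = 0.00179). Has3, a hyaluronan synthase, went from 3.36 and 3.57 RPKM to 0.186 and 0.206 RPKM. Cdkn3, a phosphatase that acts on cyclin-dependent kinases, went from 3.48 and 2.94 RPKM to 0.148 and 0.226 RPKM. In these genes and in Irs2 the recovery values lay near the pseudocount of 0.1, and the changes of Has3 and Cdkn3 were -2.85 and -2.79. Peg10, an imprinted gene of retrotransposon origin, went from 7.17 and 6.07 RPKM to 0.487 and 0.592 RPKM, and Uchl1, a ubiquitin hydrolase, from 2.76 and 2.53 RPKM to 0.151 and 0.203 RPKM, with changes of -2.65 and -2.57. Cntf, a neurotrophic factor, had 8.24 and 5.27 RPKM in steady state and 0.465 and 0.321 RPKM in recovery. It overlaps Gm44505 on the same strand, and its start lies 1307 bases past the end of Zfp91, also on that strand. Zfp91 had a change of -0.93, and whether transcription past its end adds reads to Cntf was not tested. Other falls were those of 1700047A11Rik (-3.40), Ctrl (-2.87), E030018B13Rik (-2.80) and Il4i1 (-2.65). Of these, 1700047A11Rik, Ctrl and Il4i1 were below 0.1 RPKM in both recovery libraries. Mir6352, within Epha4, had 48 and 58 reads in steady state and 0 in both recovery libraries. Against a floor of 3 reads per library its RPKM was at least 9.75-fold lower before centring. Among the 11 falls described, only Peg10 had a mean above 0.5 RPKM in recovery, so the others passed the limit through steady state alone. Of the 12, 8 overlap another annotated gene, and in 51.6% of all tested genes this is so.

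**Figure D3:**
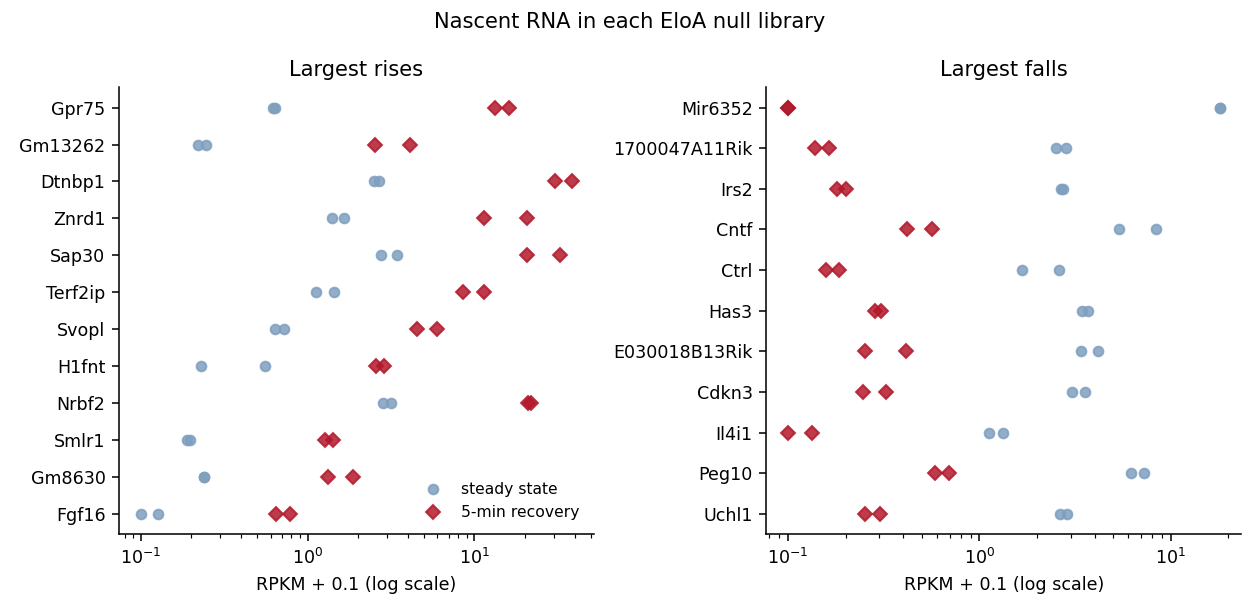
Each point is the RPKM + 0.1 of a gene in one EloA null library (x axis, log scale), for the 12 largest rises (left) and 11 of the 12 largest falls (right); circles are steady state and diamonds 5-min recovery. The conditions lie apart in every gene shown, and many of the falls end near the pseudocount of 0.1.

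The following gene groups were compared with all tested genes, whose median change is 0 by centring. Without centring each value would be 0.74 lower, and centred on genes over 100 kb it would be 1.01 lower. Where the first turns a group's median, it is said beside it. The shares to read each count against are those of all tested genes, 33.0% risen and 31.7% fallen.

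Genes of the transcription machinery come first. Among the P-TEFb, 7SK and pause release genes, 10 of 22 rose and 6 fell, with a median of 0.25, which was -0.50 without centring and -0.03 under quantile normalization. Of those that fell, 2 passed the limit in steady state alone. The kinase that FP inhibits, whose genes were chosen after their values were seen, rose in all 3 genes. Cdk9 went from 4.73 and 5.396 RPKM to 6.30 and 10.1 RPKM (change 1.39, SE 0.27, limma adjusted p = 0.0120), Ccnt1 from 4.22 and 4.20 RPKM to 4.09 and 6.41 RPKM (1.02) and Ccnt2 from 5.37 and 4.88 RPKM to 6.19 and 6.98 RPKM (1.10). None of the 3 passed the test without centring, and Cdk9 and Ccnt1 lost their calls without either steady-state library. Eaf1, a partner of the ELL elongation factors, rose by 1.75 (SE 0.14), while Ell2, one of those factors, fell by 2.23, from 2.79 and 2.48 RPKM to 0.260 and 0.234 RPKM. Aff1, a scaffold of the super elongation complex with a gene of 163 kb, rose by 0.86. Among NELF, DSIF, PAF1 and other elongation factors 6 of 20 rose and 6 fell, close to the shares over all tested genes, and the median was 0.05 against -0.69 without centring and -0.05 under quantile normalization. Of those that fell, 3 passed the limit in steady state alone. Supt4a, a subunit of DSIF, rose by 2.47, and Paf1, the name-giving subunit of the PAF1 complex, by 2.25, from 1.90 and 1.92 RPKM to 4.70 and 6.71 RPKM. Supt16, a subunit of the histone chaperone FACT, rose by 0.85 and Iws1, a partner of Spt6, fell by 0.85.

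Of the Elongin complex and its ligase, 4 of 8 tested genes rose and 1 fell, and the median of 0.51 was -0.24 without centring. Eloa rose from 1.96 and 1.89 RPKM to 5.14 and 6.25 RPKM (change 2.26, SE 0.14, limma adjusted p = 0.00179), and in WT cells its change was 1.84. Eloc rose by 1.29, Rnf7, a RING subunit of the Cul5 ligase, by 1.31 and Elob by 0.73, the last of which was -0.01 without centring. Rbx1, the RING subunit of other cullin ligases, had a change of -0.27 (SE 0.15). The gene that fell was Cul5, the cullin of the ligase.

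Mediator subunit genes rose in 18 of 33 cases and fell in 5, with a median of 0.48 that was -0.27 without centring. Of those that fell, 2 passed the limit in steady state alone. Med18 rose by 2.67, from 2.97 and 2.83 RPKM to 9.78 and 13.1 RPKM, and Med28 by 2.48. Med13l, of 205 kb, rose by 1.05, less than the median of 1.71 of genes over 200 kb. The Mediator median was 0.31 relative to genes of the same length class and GC group. Integrator, which cleaves the RNA of paused Pol II, went the other way: 9 of 16 subunit genes fell and 2 rose, with a median of -0.59, and 1 of those that fell passed the limit in steady state alone. Their median length was 31.8 kb, within the class of 20 to 50 kb, whose own median was -0.40. The group's median was -0.19 relative to genes of the same length class, and -0.42 relative to the same length class and GC group. Ints1 fell from 1.18 and 1.54 RPKM to 0.140 and 0.113 RPKM, and Ints3 and Ints6 fell by 1.64 and 1.46. Polycomb genes fell in 11 of 24 cases and rose in 5, with a median of -0.42, and 6 of those that fell passed the limit in steady state alone. Cbx2, a chromobox subunit, fell by 2.11, Phf1, an accessory factor of the H3K27 methyltransferase complex, by 2.00, and Rybp, a subunit of variant ubiquitin ligase complexes, by 0.86, while Eed, the H3K27me3-binding subunit, rose by 0.90 (16.6 and 16.3 RPKM against 16.9 and 19.7 RPKM) and Jarid2 was at 0.21 (SE 0.14).

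Genes of basic cell functions were taken by complex. Proteasome subunit genes rose in 29 of 39 cases and fell in 2, with a median of 1.30, and the median was 1.02 relative to genes of the same length class and GC group. Psma2 went from 4.09 and 3.27 RPKM to 14.8 and 17.1 RPKM (change 2.84, SE 0.18, limma adjusted p = 0.00179) and Psmc2 from 2.44 and 2.23 RPKM to 7.95 and 8.97 RPKM (2.56), while Psmb7 was at -0.20 (SE 0.18). Nuclear genes of oxidative phosphorylation rose in 59 of 89 cases and fell in 10, with a median of 0.99, which was -0.02 when centred on genes over 100 kb. The median was 0.59 relative to genes of the same length class and GC group. Of those that fell, 7 passed the limit in steady state alone. Ndufa4, first described as a subunit of complex I, rose from 4.39 and 4.02 RPKM to 18.4 and 27.0 RPKM, Atp5l, a subunit of the ATP synthase, by 2.91 and Cox5a, a subunit of cytochrome c oxidase, by 2.03. Atp5b, the catalytic beta subunit, rose by 1.33. Without centring, proteasome genes were higher in 21 cases and lower in 7, and oxidative phosphorylation genes higher in 30 and lower in 21.

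Of the mitochondrial ribosomal protein genes 41 of 78 rose and 8 fell, with a median of 0.65 that was -0.09 without centring, and Mrpl20 (3.37) and Mrpl50 (2.62) rose most. The group's median was 0.35 relative to genes of the same length class and GC group. Of those that fell 4 passed the limit in steady state alone, and of those that rose 2 passed it in recovery alone. The cytosolic ribosomal protein genes were less marked, with 22 of 85 risen and 10 fallen, a median of 0.27, which was -0.47 without centring and -0.42 under quantile normalization, and a median of -0.09 relative to genes of like length and GC content. Rpl3 was at -0.31 (SE 0.21), with 76.0 and 63.0 RPKM against 35.8 and 30.8 RPKM, and Rps9 fell by 0.61. Genes of ribosome biogenesis rose in 14 of 23 cases and fell in 1, with a median of 0.67 that was -0.07 without centring. Nolc1, a nucleolar phosphoprotein, rose by 1.99 and Ncl, which codes for nucleolin, by 0.86. Splicing factors and hnRNPs rose in 23 of 37 cases and fell in 2, with a median of 0.77 that was 0.03 without centring and -0.24 when centred on genes over 100 kb. Hnrnpa3 rose by 1.98, from 24.4 and 18.8 RPKM to 46.3 and 55.2 RPKM, Srsf3 by 1.90 and Hnrnpa2b1 by 1.27. Aminoacyl-tRNA synthetase genes fell in 8 of 20 cases and rose in 6, among them Dars, which fell by 2.13, and Qars, which rose by 1.75. In all of these groups the WT median had the sign of the EloA null median.

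**Figure D4:**
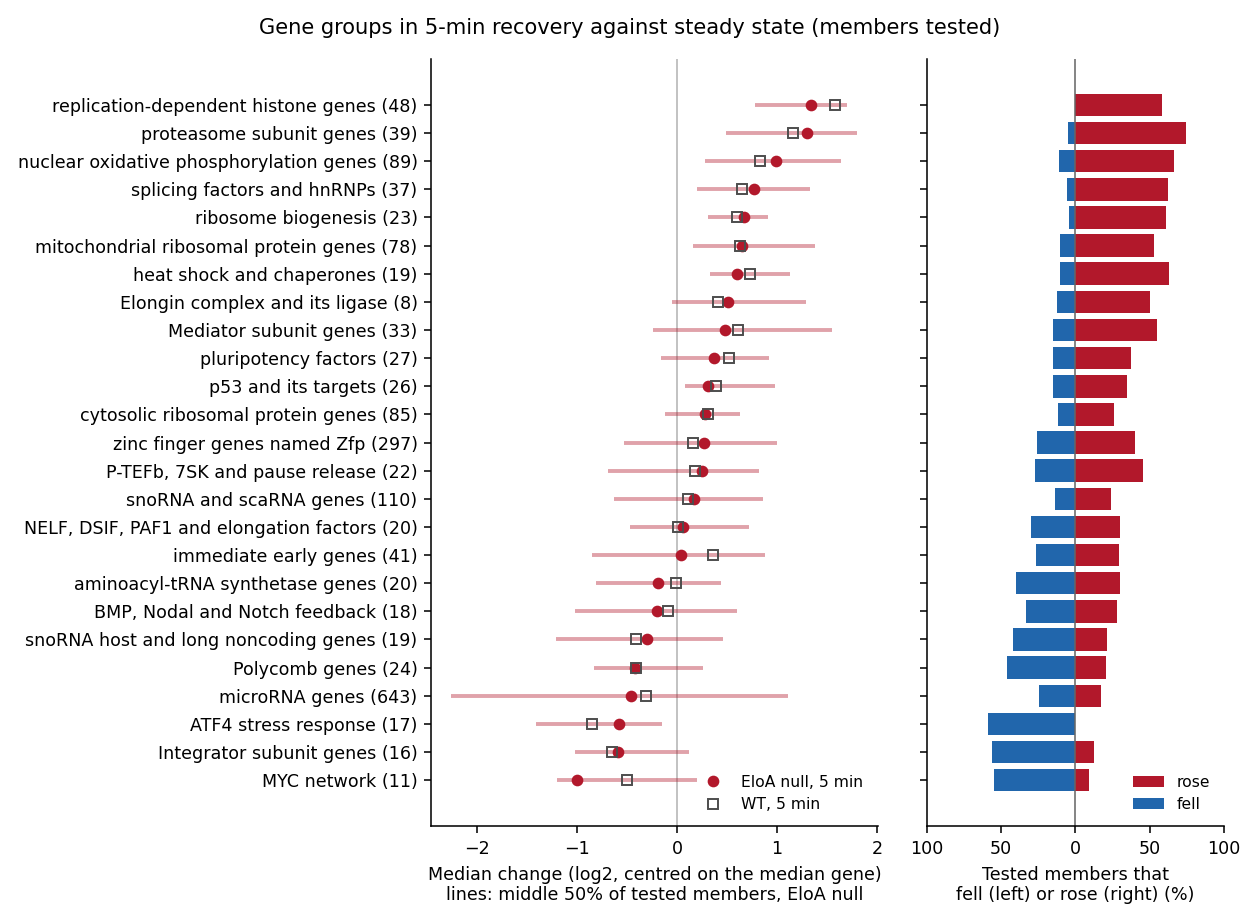
The left panel shows the median centred log2 change of each gene group with 8 or more tested members in EloA null cells (filled circles, lines for the middle 50% of members) and in WT cells (open squares), and the right panel the percentage of members that fell or rose in EloA null cells. Histone, proteasome and oxidative phosphorylation genes stand at the top with 58.3%, 74.4% and 66.3% risen, and the MYC network, Integrator subunit and ATF4 stress response genes at the bottom.

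The replication-dependent histone genes, mostly without introns and with RNA that is not polyadenylated, rose in 28 of 48 cases and fell in 0 by limma, with a median of 1.34. That median was 1.78 relative to genes of the same length class and GC group. At an unadjusted p under 0.05, 0 were lower. Hist2h2bb went from 5.08 and 7.76 RPKM to 15.5 and 11.04 RPKM (change 1.79, SE 0.29, limma adjusted p = 0.00790) and Hist1h2ae from 0.542 and 0.705 RPKM to 1.35 and 2.91 RPKM, on few reads. Hist1h2bg had 5.22 and 15.6 RPKM against 16.1 and 19.0 RPKM and did not pass the test (limma adjusted p = 0.0542), and Hist1h4i was at -0.72 (SE 0.57). Hist1h2bc, with an annotated span of 8.28 kb and an intron, rose most, by 2.86. Without centring 10 of the 48 were higher and 1 lower. The RNA components of RNase P and RNase MRP, made by Pol III, rose as well: Rpph1 went from 14.0 and 16.5 RPKM to 48.8 and 41.1 RPKM (change 2.30, SE 0.19) and Rmrp from 9.27 and 13.4 RPKM to 43.0 and 34.9 RPKM (2.53, SE 0.25). The Pol I transcript Rn45s had 1797 and 1720.4 RPKM in steady state and 1520.3 and 1426.7 RPKM in recovery, with a change of 0.49 (SE 0.38, limma adjusted p = 0.312). The authors removed ribosomal RNA before making the libraries, so the Rn45s values are of RNA left after that step and do not measure Pol I output.

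Long noncoding genes, among them hosts of small nucleolar RNAs, were mixed, with 4 of 19 risen and 8 fallen and a median of -0.30. That median was -0.91 relative to genes of the same length class and GC group. Malat1, an abundant nuclear RNA, rose from 88.7 and 88.3 RPKM to 496 and 376 RPKM (change 3.03, SE 0.27, limma adjusted p = 0.00224). Gas5, a host of small nucleolar RNAs, fell from 70.7 and 65.9 RPKM to 16.4 and 26.1 RPKM, Zfas1, another such host, fell by 1.54, and Mir17hg, the host of the miR-17 to miR-92 cluster, fell by 2.18. Small nucleolar RNA genes rose in 26 of 110 cases and fell in 15, with a median of 0.16 that was -0.58 without centring. MicroRNA genes rose in 110 of 643 cases and fell in 159. Of these microRNA genes, 129 that fell passed the limit in steady state alone, and 15 that rose passed it in recovery alone. Small nucleolar RNA and microRNA genes lie mostly in introns of other genes and can share their reads.

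Pluripotency factors rose in 10 of 27 cases and fell in 4, with a median of 0.37 that was -0.38 without centring and -0.29 under quantile normalization. Sox2 went from 12.9 and 15.4 RPKM to 21.7 and 27.1 RPKM (change 1.52, SE 0.20, limma adjusted p = 0.00452), Tbx3 from 27.7 and 24.2 RPKM to 50.1 and 47.2 RPKM (1.65), and Klf5 and Zfp42 rose by 0.91 and 0.90. Nanog had 24.4 and 25.6 RPKM against 13.3 and 19.7 RPKM, a change of 0.12 (SE 0.24) that was -0.62 under quantile normalization. Of the other genes that the study displays, Kat6b, a histone acetyltransferase gene of 173 kb, rose by 1.40 (24.3 and 26.3 RPKM against 42.9 and 36.9 RPKM), Dhx9 was at 0.34 (SE 0.23) and Epha2 at 0.53 (SE 0.22). Of the 5 tested fibroblast markers Acta2 (1.58) and Vim (0.66) rose, and Fn1 was at 0.26 (SE 0.14). Of the 3 tested endoderm and neural markers Tubb3 fell, by 2.40. Acta2 passed the limit in recovery alone, and Tubb3 in steady state alone. None of the 9 markers of 2-cell-like cells in the tables passed the limit of 0.5 RPKM.

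Immediate early genes, which signals switch on without new protein, rose in 12 of 41 cases and fell in 11, close to the shares over all tested genes, with a median of 0.03 and -0.71 without centring. Of those that fell 7 passed the limit in steady state alone, and of those that rose 2 passed it in recovery alone. Dusp4 rose from 0.372 and 0.424 RPKM to 1.05 and 1.27 RPKM, Zfp36l1 by 1.46 and Mcl1 by 1.18, while Irf1 fell from 0.823 and 0.990 RPKM to 0.0537 and 0.0371 RPKM. Of the BMP, Nodal and Notch feedback genes 5 of 18 rose and 6 fell, the ERK pathway inhibitors Spry2 (1.46) and Spry4 (1.80) among the risers. Their median was -0.20, and 0.12 relative to genes of the same length class and GC group. Of those that fell 4 passed the limit in steady state alone, and of those that rose 1 passed it in recovery alone. Heat shock and chaperone genes rose in 12 of 19 cases and fell in 2, with a median of 0.60 that was -0.15 without centring. Hsp90aa1 went from 28.4 and 24.4 RPKM to 91.5 and 106 RPKM (change 2.65, SE 0.20, limma adjusted p = 0.00192) and Hspe1, the mitochondrial co-chaperonin, from 7.394 and 7.398 RPKM to 18.5 and 24.8 RPKM, while Hspa8 and Hsp90ab1 rose by 0.85 and 0.60, which were at 0.10 and -0.15 without centring. Of p53 and its targets 9 of 26 rose and 4 fell, with a median of 0.31 that was -0.44 without centring, Phlda3 up by 1.35 and Mdm2 at 0.99 (SE 0.35, limma adjusted p = 0.0633). Genes of the ATF4 stress response fell in 10 of 17 cases and rose in 0 by limma, with 0 higher at an unadjusted p under 0.05 and a median of -0.58, and 5 of those that fell passed the limit in steady state alone. That median was -0.31 relative to genes of the same length class and GC group. The amino acid transporter Slc7a5 went from 6.40 and 6.73 RPKM to 0.772 and 0.673 RPKM and the serine pathway enzyme Phgdh fell by 1.89, while Asns was at 0.31 (SE 0.23). In the MYC network 6 of 11 fell and 1 rose, with a median of -1.003, and all 6 that fell passed the limit of 0.5 RPKM in steady state alone. That median was -0.41 relative to genes of the same length class and GC group, and -0.35 under quantile normalization. Mnt and Mxd1, antagonists of Myc, fell by 1.91 and 1.60, Mga, whose gene spans 97.6 kb, rose by 0.87, and Mycn was at -0.10 (SE 0.15). Of the zinc finger genes named Zfp 119 of 297 rose and 76 fell, with a median of 0.27 that was -0.47 without centring, led by Zfp14 (3.11) and Zfp617 (2.94). Their median was 0.11 relative to genes of the same length class and GC group. Of those that fell 50 passed the limit in steady state alone, and of those that rose 3 passed it in recovery alone.

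Lastly, the restart in EloA null cells was compared with that in WT cells, treated alike and sharing no library with them. Across the 11469 genes, which are not independent replicates, the changes in both genotypes had a Pearson r of 0.882. Of the genes that rose in EloA null cells, 99.1% had a WT change above 0, and of those that fell 98.7% had one below 0. The difference itself, tested by a limma interaction over 8 libraries, passed for 9 of 11702 genes: 3 were higher (0.0256%) and 6 lower (0.0513%) in EloA null cells, with 498 at an unadjusted p under 0.05. Of these 9, 8 were microRNA genes of at most 10 reads in any library, and the ninth was Lhb, with at most 32 reads. In genes over 200 kb the median change was 1.71 in EloA null cells and 1.44 in WT cells, and in genes of 20 to 50 kb -0.40 and -0.41; the difference between genotypes was tested per gene and not for these classes.

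**Figure D5:**
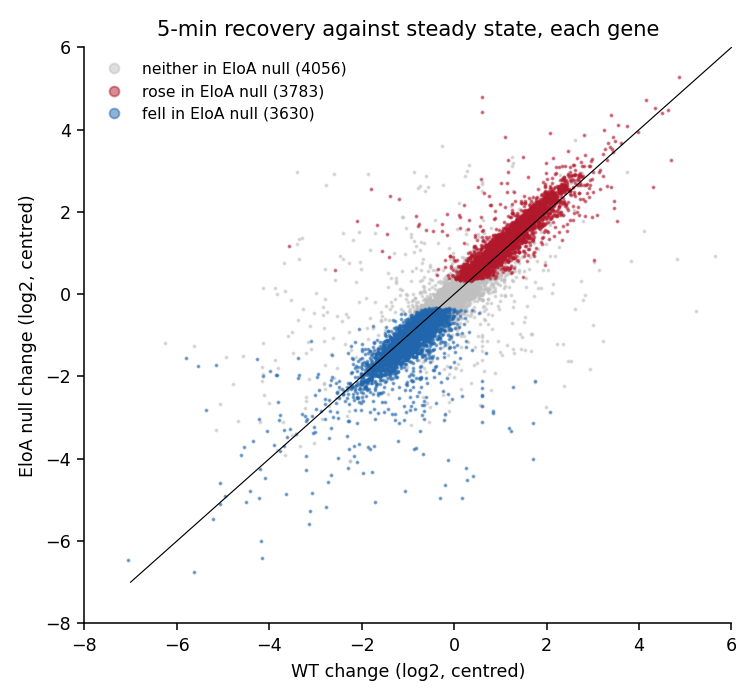
Each point is one of the 11469 tested genes, with its centred log2 change from steady state to 5-min recovery in WT cells (x axis) and in EloA null cells (y axis); colours mark the genes that rose or fell in EloA null cells, and the line marks equal change. Most called genes lie close to the line, on the same side of 0 in both genotypes.

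After 10 min of recovery in EloA null cells, measured against the same steady-state libraries, the order of the length classes was another. Genes of 10 to 20 kb had a median change of 0.70 at 10 min and 0.00 at 5 min, genes of 50 to 100 kb -0.71 and -0.19, and genes over 200 kb -0.24 and 1.71. Of the reads, genes over 200 kb took 14.1% and 15.5% at 10 min and genes of 10 to 20 kb 15.6% and 14.9%, against 6.603% and 7.632% at 5 min. Gpr75 and Dtnbp1 were at 2.93 and 2.67 at 10 min, Kat6b at -1.02, Malat1 at 0.34, and Rpph1 and Rmrp at -0.23 and -0.21. The histone group had a median of -0.40 at 10 min and 1.34 at 5 min, and the proteasome group 1.499 and 1.30. The 5-min and 10-min values share their steady-state libraries, so they are set side by side without a test.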

How the data were processed

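Bru-seq, which isolates RNA labelled with BrU and sequences it, was performed by the authors, who aligned reads to mm10 and dm3 with Bowtie2 (2.3.4.3), kept unique alignments and counted reads over whole RefSeq genes with featureCounts (1.6.1). The authors deposited RPKM values, calculated with edgeR, in one table per treatment. Neither a common scale for the tables nor the use of strand in counting is stated, and the Drosophila spike-in RNA is not analysed here. Library sizes were worked out from the RPKM values and gene lengths.

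Of 24984 genes per table, 4 rows with a repeated name were left out, and 24420 genes matched RefSeq (GRCm38.p6) by symbol and 407 by an older symbol. Genes with a mean RPKM above 0.5 in either condition were tested with limma (3.58.1, R 4.3.3) on log2(RPKM + 0.1) with an intensity trend, centred on the median and adjusted by Benjamini-Hochberg over all 11469 genes. A fold change on this scale understates the change of low genes. The procedure was run on simulated data in which few genes changed, as many up as down. That setting cannot test the centring used here, where most genes were called. WT and EloA null changes were compared by a limma interaction. Gene lists were described by counts and medians. Alternatives covered the pseudocount, limits on RPKM or reads, centring, quantile normalization, GC content, a replicate block and leaving out each library. Summaries used python 3.11.15, pandas 2.3.3 and numpy 2.4.6.

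The genes named were the 12 largest rises and falls without overlap and with at least 50 reads on average in the higher condition, the 6 largest rises over 30 kb and falls under 10 kb, genes the study shows, selected genes of each list by steady-state level and size of change, and the interaction's smallest p-values. Members and lists were chosen with earlier results of these data known. A few genes that these rules name are not reported here. The authors' mean columns and the other data types of the series were not used here.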

Additional observations from a re-analysis of the deposited data

Results flagged for a closer look

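The change from steady state to 5-min recovery differed between EloA null and WT cells, by the limma interaction test with an adjusted p under 0.05, for 9 genes, most of them on a handful of reads. Lhb, which codes for a subunit of luteinizing hormone, differed by 2.65 (SE 0.19, log2, null minus WT, limma adjusted p = 0.0145). It had 21 and 32 reads in EloA null steady state and 2 and 3 in recovery, and 28 and 31 reads in WT steady state and 0 in both WT recovery libraries. Mir674 (3.98) and Mir3101 (4.71) were also higher in EloA null cells, with at most 6 and 5 reads in any library and 0 in WT recovery. Lower in EloA null cells were Mir1907 (-4.84), Mir3569 (-4.85), Mir127 (-4.66), Mir147 (-3.53), Mir219a-2 (-4.45) and Mir6926 (-5.74), each with 0 reads in both EloA null recovery libraries and at most 3 reads in WT recovery. The fitted differences depend on the pseudocount where a library is at 0 and are no bounds. With at least 20 reads in the highest group, 1 gene passed the test.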

How the results depend on the processing

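The number of genes that rose and fell, 3783 and 3630, was 6526 and 6699 of 21614 genes without a limit on RPKM, 1941 and 1966 of 5957 above 2 RPKM, and 2246 and 2364 of 8043 above 0.5 RPKM in both conditions. It was 1685 and 6446 without centring and 1182 and 7415 when centred on genes over 100 kb, so that 20.7% and 13.7% of the calls were rises in place of 51.0%. Leaving out 1 library gave 1627 to 3607 rises and 1482 to 3663 falls, with 44.6% and 41.1% of the calls kept without the first or second steady-state library. The numbers past 2-fold without overlap were 960 and 4944 without centring. The short against long contrast was -0.284 with genes under 5 kb and over 60 kb. The interaction called 4 genes above 2 RPKM, 1 with at least 20 reads in the highest group, 4 under quantile normalization, 5 with a replicate block, and 4 to 23 with 1 library left out: 19 without the first EloA null steady-state library, 23 and 4 without the second and first WT recovery library, and 5 without either WT steady-state library.

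Of the genes named with their changes, those with an adjusted p under 0.05 in the reported or the alternative setting were looked at for a change of sign. Without centring, those that turned negative were Elob (-0.0146), Hsp90ab1 (-0.15), Jarid2 (-0.54), Fn1 (-0.48) and Vim (-0.0813). Centred on genes over 100 kb they were Elob (-0.28), Eed (-0.11), Nanog (-0.89), Klf5 (-0.10), Zfp42 (-0.11), Hspa8 (-0.16), Hsp90ab1 (-0.41), Aff1 (-0.15), Supt16 (-0.17), Jarid2 (-0.80), Mga (-0.14), Asns (-0.71), Ncl (-0.15), Fn1 (-0.75) and Vim (-0.349). Under quantile normalization they were Nanog (-0.62), Hsp90ab1 (-0.0265), Jarid2 (-0.54), Asns (-0.39) and Fn1 (-0.48). The shifts of scale are fixed by the centring itself, and otherwise the cause was not tested.

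With a replicate block 3574 genes rose and 3461 fell, and 91.4% of the calls were kept. The replicate numbers mark no shared batch in the labels, and the deviations of same-numbered libraries had a correlation of 0.0584 across genes. The GC trend, the scaling before the pseudocount and the omission of WT libraries were chosen after seeing the data. The precision for short genes with few reads is limited by the library sizes, and no limit of detection was worked out for them.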
